A study of Mus musculus with 12 samples.

Results

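Notch signalling passes between touching cells. A ligand of the Jagged or Delta-like family on a cell binds a Notch receptor on its neighbour, the receptor is cut by ADAM metalloproteases and gamma-secretase, and the released intracellular domain joins the DNA-binding protein Rbpj and a Mastermind coactivator at target genes such as Hes1. In macrophages, Notch ligands and receptors are known to be regulated by bacterial products and to modulate inflammatory gene expression.

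Described here are 10 genes of this pathway, the ligands Jag1, Jag2, Dll1 and Dll4, the receptors Notch1, Notch2 and Notch4, the effector Rbpj, the coactivator Maml1 and the target Hes1. They were taken by gene symbol from the count tables of a study of mouse ACAT1, a mitochondrial thiolase of the last step of fatty acid oxidation. All 10 members were listed after LPS and 9 without stimulation, where Dll1 was not, out of 16699 genes listed in both tables. The members were selected on the measured level of Jag2, which was lower in ACAT1 KO than in WT cells, so the differences between genotypes in these genes are given as a description and no p-value is given for them.

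RNA-seq was performed on J774A.1 cells, a mouse macrophage line, in 4 groups of 3 libraries: WT unstimulated, ACAT1 KO unstimulated, WT LPS and ACAT1 KO LPS. LPS, the Toll-like receptor 4 agonist lipopolysaccharide, was given at 100 ng/ml for 2 hours. WT cells had received the Cas9 vector without a guide RNA and ACAT1 KO cells the same vector with a guide to the fourth exon of Acat1, and both were grown as clonal populations, so all 4 groups share the vector and the clonal outgrowth. The study describes the 3 unstimulated samples of a genotype as different lines, and whether the LPS libraries came from the same lines is not given in the sources used here. The p-values measure the spread between these libraries, and what the lines of a genotype share besides ACAT1 and the loss of ACAT1 cannot be told apart. In whole-culture RNA, fewer cells expressing a gene and less RNA per cell cannot be told apart either.

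Libraries held 56948593 to 167280149 counts. Acat1 was counted in every library, at a log2 difference between ACAT1 KO and WT of -1.87 (SE 0.12) without stimulation and -2.08 (SE 0.13) after LPS. Of the LPS-induced genes Tnf, Il1b, Nfkbia, Ccl4 and Cxcl2, all but Cxcl2 rose in WT and all 5 rose in ACAT1 KO cells. With the replicate number as a block Cxcl2 rose in WT cells too (adjusted p = 0.0023 in edgeR). The 10 macrophage markers, which include Csf1r, Adgre1 and Itgam, were all listed and summed to 9593 to 12220 CPM, the unit of counts scaled to library size, in each library. Lyz2 made up most of that sum, and single markers, named after their values were seen, differed between genotypes. Without stimulation Adgre1 was at 74.0 ± 8.86 CPM in WT and 42.7 ± 4.29 CPM in ACAT1 KO cells (SD, n = 3), with overlap after LPS. Fcgr1 was at 121.3 ± 1.91 and 75.0 ± 2.96 CPM (SD, n = 3) without stimulation and at 114.0 ± 15.5 and 53.6 ± 7.40 CPM after LPS. Mertk was higher in ACAT1 KO cells without overlap in both states, and Itgam after LPS. None of 5 epithelial markers was listed. Of 6 endothelial markers, Cdh5, Flt1 and Egfl7 were listed in both tables and summed to 3.30 to 4.72 CPM, and Tek and Tie1 were in neither. Of 5 fibroblast markers only Pdgfra was in both tables, at 1.14 to 1.67 CPM without stimulation, 5.53 to 6.48 CPM in WT and 11.3 to 13.0 CPM in ACAT1 KO cells after LPS, and of 5 lymphoid markers only Cd79a, at 0.0305 to 0.938 CPM. The part of such cells in the results was not tested. WT unstimulated 1 and 2 and ACAT1 KO unstimulated 2 stood apart in holding 0.0105% to 0.0163% of their counts on 25 noncoding genes that lie within exons of the other strand, against 0.00058% to 0.00112% in the other 9 libraries.

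Windows before the transcription start are shown for a ligand and a receptor that rose with LPS and for Rbpj, whose own binding motif lies in its window. They come from the RefSeq promoter table of GRCm38.p6, read 5′ to 3′ on the strand of the gene, and bases within a GENCODE exon are left out. Capitals mark the Rbpj core motif TGGGAA or the NF-kB consensus on either strand.
Jag1, chr2:137116645-137116770, minus strand: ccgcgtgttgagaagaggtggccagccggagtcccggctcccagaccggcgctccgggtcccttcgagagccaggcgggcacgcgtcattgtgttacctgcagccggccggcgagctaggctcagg
Notch2, chr3:98013288-98013526, plus strand: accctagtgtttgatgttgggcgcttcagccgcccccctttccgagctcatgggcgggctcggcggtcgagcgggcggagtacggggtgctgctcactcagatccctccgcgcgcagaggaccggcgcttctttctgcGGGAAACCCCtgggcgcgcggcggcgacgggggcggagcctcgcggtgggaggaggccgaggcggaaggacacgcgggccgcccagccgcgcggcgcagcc
Rbpj, chr5:53590096-53590213, plus strand: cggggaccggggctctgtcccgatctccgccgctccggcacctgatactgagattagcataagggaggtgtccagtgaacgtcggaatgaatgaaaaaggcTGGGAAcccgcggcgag

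Motifs were searched over the 250 bases before the RefSeq start, on both strands, for the 9 members with a window. Hes1 had no entry. TGGGAA was present in the windows of Rbpj only, against 21.6% of 32817 promoters. The NF-kB consensus was present in Notch2, which rose with LPS, in Dll4 and Notch4, which fell, and in 1 of 2 windows of Dll1, against 7.25% of promoters. In Notch2 the same bases match on both strands, and in Dll4 the match overlaps a GC box. The GC box GGGCGG, found in 32.7% of promoters, occurred 5 times each in Jag2, Notch1 and Notch2, 2 times each in Dll4 and Maml1, and not in Jag1, Rbpj, Dll1 or Notch4, with 2 overlapping matches in Jag2. The N box CACNAG, bound by Hes proteins and found in 36.7% of promoters, occurred in Notch1, Notch2 and Dll4, and TATAAA, found in 12.4%, in none. The window of Jag2 had 87.2% GC and 54 CpG, and 0.0427% of promoters were as rich in GC. The Jag1 window had 57.2% GC and 20 CpG. The Jag2 window lies within the first exon of the GENCODE annotation, whose start is farther out. These matches describe letters in a window and nothing more.

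Levels per kilobase of exon differed widely among the members. Without stimulation, Notch2 was highest in WT cells with 9.03 ± 1.67 CPM per kb (SD, n = 3), beside Rbpj with 8.81 ± 0.418 CPM per kb (SD, n = 3), a difference smaller than their spread. Hes1 was at 5.998 ± 2.97 and Maml1 at 5.82 ± 0.474 CPM per kb (SD, n = 3), which overlapped too. Notch1, Jag2 and Jag1 followed at 1.60 ± 0.269, 1.38 ± 0.150 and 1.16 ± 0.0691 CPM per kb (SD, n = 3). Dll4 and Notch4 were near the limit of counting, at 15 to 29 and 30 to 40 counts per library in WT cells. In ACAT1 KO cells Rbpj and Notch2 led as well, at 8.91 ± 0.447 and 7.89 ± 0.482 CPM per kb (SD, n = 3), but Hes1, at 1.84 ± 0.224, stood well below Maml1, at 5.32 ± 0.581. Jag2, at 0.336 ± 0.00634 CPM per kb (SD, n = 3), stood below Jag1, at 1.03 ± 0.172.

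After LPS the order changed. Notch2 and Jag1 came first in WT cells, at 19.2 ± 3.20 and 15.0 ± 2.55 CPM per kb (SD, n = 3), and their libraries overlapped. Rbpj, at 10.1 ± 0.616, and Maml1, at 9.60 ± 0.686, followed within their spread of each other, and then Notch1 at 2.50 ± 0.334 CPM per kb (SD, n = 3). Dll1, on the scale of the LPS table, was at 1.15 ± 0.481 in WT and 0.488 ± 0.305 CPM per kb in ACAT1 KO cells (SD, n = 3). Hes1 was at 1.08 ± 0.992 and Jag2 at 0.296 ± 0.0953 CPM per kb (SD, n = 3). In ACAT1 KO cells the same order held by mean for these genes, from Notch2 at 15.0 ± 1.10 and Jag1 at 12.9 ± 0.895 down to Hes1 at 0.248 ± 0.112 and Jag2 at 0.0910 ± 0.0194 CPM per kb (SD, n = 3), with Dll4 and Notch4 lower still. Lengths are the union of a gene's exons, 12750 bases for Rbpj, so levels per kb of genes with long alternative exons are understated. Notch2 made up 83.9% to 91.0% of the summed level per kb of Notch1, Notch2 and Notch4 in every one of the 12 libraries.

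**Figure D1:**
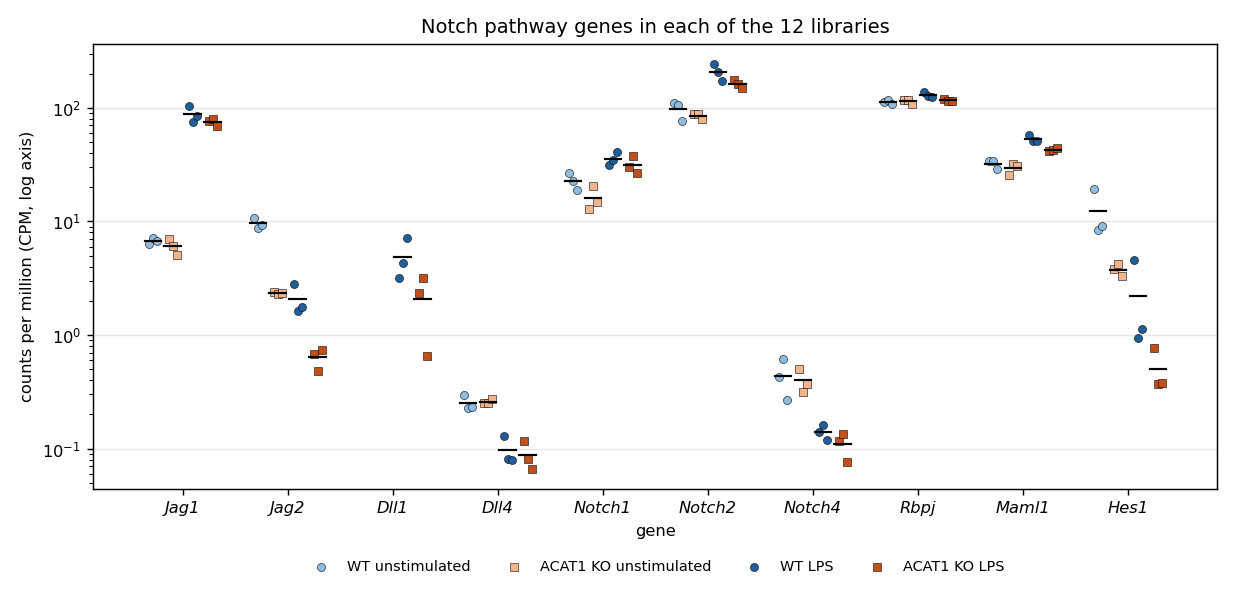
Level in CPM of the 10 genes in each library, on a log axis, with circles for WT, squares for ACAT1 KO, light symbols for unstimulated and dark symbols for LPS libraries, and a line at each group mean. Jag1 sits between 5.02 and 7.17 CPM without stimulation and between 69.2 and 103.5 CPM after LPS, whereas Jag2 and Hes1 are lower after LPS and in ACAT1 KO cells. Dll1 was listed after LPS only and is drawn on the scale of that table.

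The rule that chose the genes did not use the response to LPS, which was tested in each genotype, although the genes were picked with earlier results of these data known and the Jag2 levels that the rule used come from the same libraries. After 2 hours, Jag1, Notch1, Notch2 and Maml1 rose and Jag2, Dll4, Notch4 and Hes1 fell in both genotypes, and Rbpj rose slightly in WT cells. Of the 9 members tested, 9 passed an adjusted p under 0.05 in WT cells, 5 higher and 4 lower, beside 57.4% of the 16535 genes tested. In ACAT1 KO cells 8 of 9 passed, 4 higher and 4 lower, beside 60.7% of all genes. Their libraries did not overlap between states for 9 members in WT and 8 in ACAT1 KO cells, beside 61.0% and 67.8% of all genes. The median size of the log2 change, without regard to sign, was 1.41 over the members and 0.47 over all genes in WT, and 1.56 and 0.50 in ACAT1 KO cells. In both genotypes the middle value among the members was that of Dll4, a gene near the limit of counting. Unstimulated and LPS libraries come from separate tables, and whether they were sequenced together is not given in the sources used here, so LPS and the sequencing of a table cannot be told apart.

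The ligands moved in opposite directions. Jag1 lies on the minus strand of chromosome 2, from 137081456 to 137116644 in GRCm38, and encodes a membrane ligand of Notch receptors. It was at 6.37, 7.17 and 6.75 CPM in WT and 7.02, 6.05 and 5.02 CPM in ACAT1 KO cells without stimulation. After LPS it was at 103.5, 74.4 and 84.0 CPM in WT and 76.7, 79.2 and 69.2 CPM in ACAT1 KO cells. Every LPS library was above every unstimulated library, and the genotypes overlapped in both states. The log2 fold change was 3.69 (SE 0.15, adjusted p = 2.3e-09 by the quasi-likelihood test of edgeR) in WT and 3.64 (SE 0.14, adjusted p = 1.9e-09) in ACAT1 KO cells, a 12.9-fold and a 12.4-fold rise.

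Jag2, the second Jagged ligand, lies on the minus strand of chromosome 12, from 112907819 to 112929776. It was at 10.8, 8.81 and 9.26 CPM in WT and 2.39, 2.31 and 2.32 CPM in ACAT1 KO cells without stimulation. After LPS it was at 2.83, 1.61 and 1.75 CPM in WT and 0.675, 0.483 and 0.743 CPM in ACAT1 KO cells. It was lower after LPS in every library of both genotypes, by 4.67-fold in WT (log2 fold change -2.22, SE 0.22, adjusted p = 3.2e-06 by the quasi-likelihood test of edgeR) and by 3.69-fold in ACAT1 KO cells (-1.88, SE 0.22, adjusted p = 1.5e-05). The ACAT1 KO LPS libraries held the lowest level of all, on 54 to 78 counts each.

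Dll4, a Delta-like ligand best known from endothelium, fell by 1.41 on the log2 scale in WT (SE 0.27, adjusted p = 7.9e-04 by the quasi-likelihood test of edgeR) and by 1.56 in ACAT1 KO cells (SE 0.27, adjusted p = 3.2e-04). Its levels were 0.229 to 0.297 CPM without stimulation and 0.0667 to 0.129 CPM after LPS, on 7 to 35 counts per library. Dll1, another Delta-like ligand, was listed only after LPS, so the size of its response could not be tested. It had 302 to 1202 counts per library in WT LPS and 75 to 393 in ACAT1 KO LPS libraries. If counts under 4 kept Dll1 off the unstimulated list, some unstimulated libraries lay below every LPS library. That would be a rise with LPS relative to those libraries, and its extent in each genotype is not known.

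The balance of ligands shifted with the state. Per kb, the ratio of Jag1 to Jag2 had a median of 0.872 in WT unstimulated libraries, where Jag2 was the higher, and of 3.13 in ACAT1 KO unstimulated libraries. After LPS its median was 55.1 in WT and 135.8 in ACAT1 KO libraries, and the 4 groups did not overlap. Jag1 made up 40.2% to 48.2% of the summed level per kb of Jag1, Jag2 and Dll4 in WT and 68.1% to 74.7% in ACAT1 KO cells without stimulation. After LPS it made up 97.6% to 98.1% in WT and 98.97% to 99.3% in ACAT1 KO cells. With Dll1, which was listed only after LPS, counted among the ligands, Jag1 made up 87.0% to 93.3% in WT and 93.6% to 97.6% in ACAT1 KO cells after LPS. Dll1 itself made up 4.41% to 11.4% and 1.39% to 5.74%. Part of the gap between genotypes follows from the choice of Jag2 and is a description.

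Among the receptors, Notch2 and Notch1 rose. Notch2 was at 109.7, 105.7 and 76.8 CPM in WT and 88.1, 88.1 and 79.1 CPM in ACAT1 KO cells without stimulation. After LPS it was at 241.7, 206.4 and 172.7 CPM in WT and 174.0, 161.5 and 150.3 CPM in ACAT1 KO cells. The states did not overlap in either genotype. Notch2 rose by 1.09 on the log2 scale in WT (SE 0.14, adjusted p = 3.6e-05 by the quasi-likelihood test of edgeR) and by 0.93 in ACAT1 KO cells (SE 0.14, adjusted p = 1.2e-04).

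Notch1 was at 26.6, 22.6 and 18.9 CPM in WT and 12.7, 20.3 and 14.9 CPM in ACAT1 KO cells without stimulation, and at 31.3, 34.6 and 40.6 CPM in WT and 30.0, 37.9 and 26.6 CPM in ACAT1 KO cells after LPS. All LPS libraries of a genotype were above its unstimulated ones. The log2 fold change was 0.65 in WT (SE 0.19, adjusted p = 0.011 by the quasi-likelihood test of edgeR) and 0.98 in ACAT1 KO cells (SE 0.19, adjusted p = 7.1e-04). The WT call was lost with upper-quartile normalization, where the change was 0.44. Notch1 shares 1068 exonic bases with the noncoding gene 0610009E02Rik on the other strand, which had 17 to 63 counts per library. Notch4, a receptor typical of endothelium, was at 0.267 to 0.610 CPM without stimulation and 0.0762 to 0.162 CPM after LPS. It fell by 1.60 on the log2 scale in WT (SE 0.34, adjusted p = 0.0014 by the quasi-likelihood test of edgeR) and by 1.87 in ACAT1 KO cells (SE 0.34, adjusted p = 4.9e-04). Without the 3 libraries that stood apart on the other strand, the WT change of Notch4 was -0.97. That fit leaves WT unstimulated 3 alone in its group.

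Rbpj, the DNA-binding effector, was nearly level. It was at 111.5, 118.0 and 107.4 CPM in WT and 116.5, 117.3 and 107.1 CPM in ACAT1 KO cells without stimulation, and at 138.1, 125.8 and 123.5 CPM in WT and 119.8, 115.1 and 115.1 CPM in ACAT1 KO cells after LPS. It rose by 0.20 on the log2 scale in WT (SE 0.06, adjusted p = 0.015 by the quasi-likelihood test of edgeR), and its change in ACAT1 KO cells was 0.04 (SE 0.06, adjusted p = 0.61). The WT call was lost, at 0.15 to 0.17, without WT LPS 1, WT unstimulated 1 or WT unstimulated 3, and with upper-quartile normalization the changes were -0.01 in WT and -0.11 in ACAT1 KO cells. Maml1, the Mastermind coactivator, rose by 0.72 in WT (SE 0.09, adjusted p = 2.2e-05 by the quasi-likelihood test of edgeR) and by 0.54 in ACAT1 KO cells (SE 0.09, adjusted p = 2.1e-04). Its levels were 25.8 to 33.7 CPM without stimulation and 41.8 to 57.4 CPM after LPS, with no overlap between states.

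Hes1, a transcriptional repressor and the classical Notch target, was at 19.2, 8.38 and 9.09 CPM in WT and 3.77, 4.199 and 3.29 CPM in ACAT1 KO cells without stimulation. After LPS it was at 4.53, 0.933 and 1.12 CPM in WT and 0.768, 0.367 and 0.381 CPM in ACAT1 KO cells. WT number 1 was the highest of its group in both states, and in each genotype all LPS libraries were below all unstimulated ones. Hes1 fell by 2.49 on the log2 scale in WT (SE 0.56, adjusted p = 0.0024 by the quasi-likelihood test of edgeR) and by 2.90 in ACAT1 KO cells (SE 0.59, adjusted p = 0.0011). The WT change was -3.57 without WT LPS 1 and -2.03 without WT unstimulated 1, past the threshold in both.

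**Figure D2:**
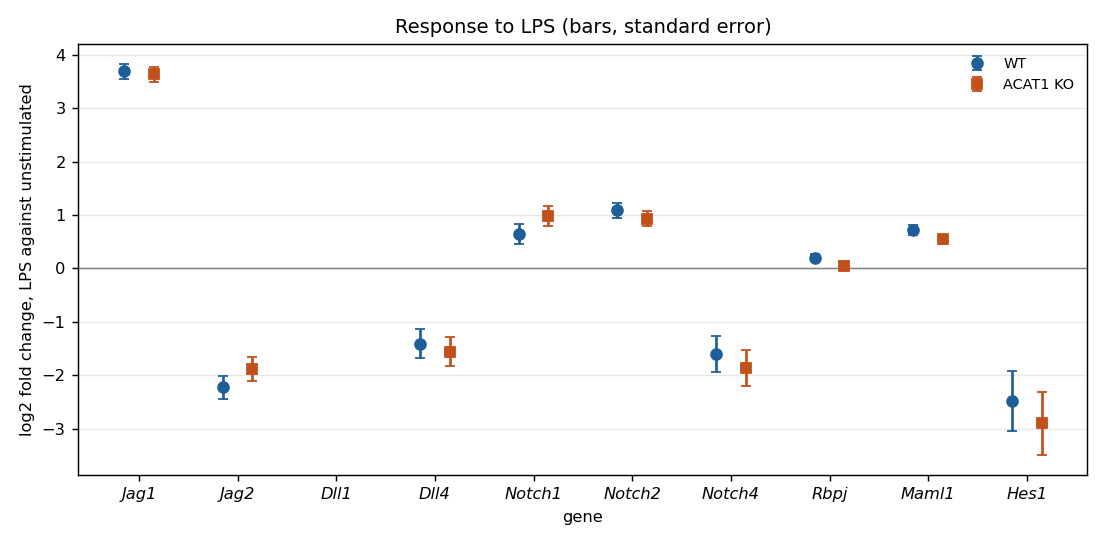
Log2 fold change of LPS against unstimulated cells for the 9 genes in both tables, with circles for WT, squares for ACAT1 KO and bars for the standard error. Jag1 stands at 3.69 and 3.64, Jag2 at -2.22 and -1.88, Hes1 at -2.49 and -2.90, and the bars of the genotypes overlap for all but Rbpj and Maml1.

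The LPS response was then compared between genotypes by the interaction term. None of the 9 members passed the adjusted threshold in edgeR's quasi-likelihood test, beside 0.187% of all genes, and none had an unadjusted p under 0.05. DESeq2 and limma-voom called 0 of them as well, as did the fit with the replicate number as a block. The interaction was -0.05 (SE 0.19) for Jag1, -0.16 (SE 0.20) for Notch2, 0.33 (SE 0.26) for Notch1, -0.16 (SE 0.09) for Rbpj and -0.18 (SE 0.13) for Maml1 on the log2 scale. It was -0.16 (SE 0.39) for Dll4 and -0.26 (SE 0.48) for Notch4. For Notch4 it was -1.03 without the 3 libraries that stood apart, with WT unstimulated 3 alone in its group. For Hes1 it was -0.42 (SE 0.78) and turned to 0.66 without WT LPS 1. For Jag2, whose genotype difference chose the genes, it was 0.34 (SE 0.30), given as a description. These errors leave room for differences of their own size, so equal responses are not shown.

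Between genotypes, Jag2 and Hes1 had the lowest fold changes among the members in both states. In unstimulated cells the log2 fold change of ACAT1 KO against WT was -2.03 (SE 0.13) for Jag2 and -1.69 (SE 0.33) for Hes1, with no overlap between the genotypes. It was -0.50 (SE 0.20) for Notch1 and between -0.18 and 0.04 for Notch2, Jag1, Maml1, Notch4, Rbpj and Dll4, where the genotypes overlapped. The genotypes did not overlap for 2 of 9, beside 25.8% of the 16440 genes tested. Since the choice of genes used this contrast, nothing is read from this count.

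After LPS the log2 fold change was -1.68 (SE 0.26) for Jag2, -2.10 (SE 0.64) for Hes1 and -1.25 (SE 0.50) for Dll1. Dll1 was at 3.16, 4.34 and 7.11 CPM in WT and 2.36, 3.17 and 0.651 CPM in ACAT1 KO cells, so ACAT1 KO LPS 2 lay just above the lowest WT library. The difference of Hes1 was -1.04 without WT LPS 1. Maml1 was at 57.4, 51.1 and 50.6 CPM in WT and 41.8, 42.6 and 44.1 CPM in ACAT1 KO cells, at -0.29 (SE 0.07), and Notch2 was at -0.33 (SE 0.11). The genotypes did not overlap for 4 of 9, which were Jag2, Hes1, Maml1 and Rbpj, beside 37.6% of the 16483 genes tested. Rbpj was at -0.13, and the genotypes overlapped for Notch2. Dll4 did not pass the filter on low counts in that table. These values too are a description.

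**Figure D3:**
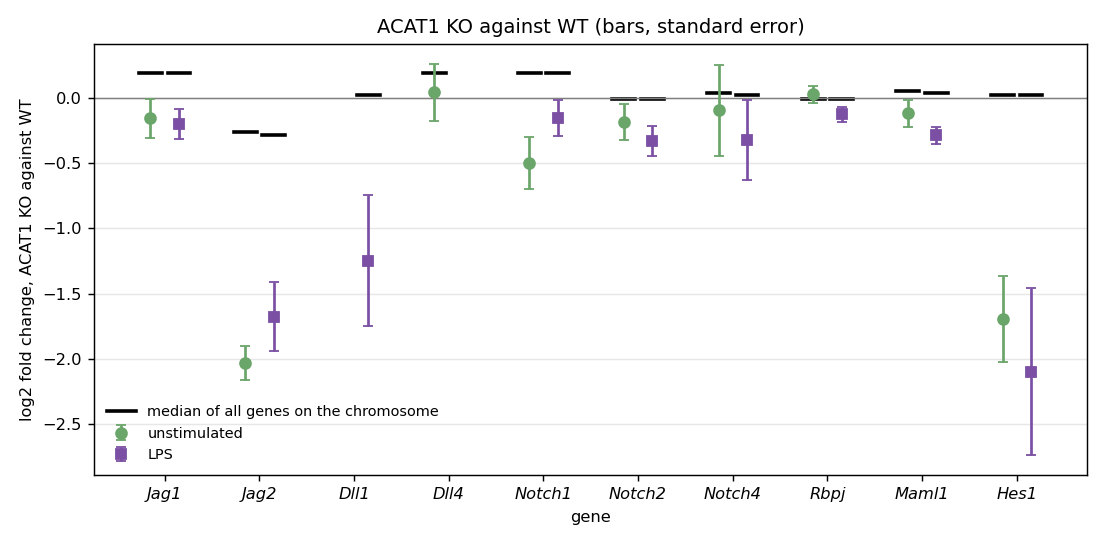
Log2 fold change of ACAT1 KO against WT for each member, with circles for unstimulated cells, squares for LPS and bars for the standard error. Black marks give the median of all genes of the chromosome that holds the gene. Jag2, whose level chose the genes, stands at -2.03 and -1.68 beside chromosome medians of -0.26 and -0.28. Hes1 stands at -1.69 and -2.10 beside a chromosome median of 0.02 in both states.

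Of the chromosomes that hold members, 12 and 2 differed between the genotypes as a whole. The medians of chromosomes 3, 5, 11, 16 and 17 lay between -0.0093 and 0.056 in both states. Of 585 genes tested on chromosome 12 in unstimulated cells, 82.9% had a negative log2 fold change in ACAT1 KO against WT, with a median of -0.26. After LPS it was 79.1% of 584 genes, with a median of -0.28. No gene of the chromosome was lower than Jag2 without stimulation and 9 were lower after LPS. Less the median of its chromosome, Jag2 was at -1.77 and -1.39. Since Jag2 was chosen for its lower level in ACAT1 KO cells, its rank and these values are a description. Within 5 Mb on either side of Jag2, 85 other genes had a median of -0.23 and a lowest value of -1.55 without stimulation. After LPS 81 had a median of -0.28 and a lowest value of -1.68. Of these genes 76.5% and 79.0% were negative. The lowest after LPS was Slc25a29, at -1.43 without stimulation and, like Jag2, -1.68 after LPS. Crip2 was at -0.50 and -1.54. Both are named after their values were seen.

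The nearest genes tested did not share the size of its difference, which is a description too, since Jag2 was chosen for its lower level. Nudt14, whose nearer edge lies 4.5 kb beyond the 5′ end of Jag2, encodes a nucleotide sugar hydrolase. It was at 0.05 (SE 0.11) without stimulation and -0.11 (SE 0.10) after LPS. Brf1, a subunit of the initiation factor of RNA polymerase III, was at -0.33 (SE 0.07) and -0.37 (SE 0.06), and Pacs2, a sorting protein, at -0.28 (SE 0.09) and -0.32 (SE 0.06). On the other side, Gpr132, a G protein-coupled receptor of macrophages, was at -0.54 (SE 0.09) and -0.34 (SE 0.12), Cdca4 at -0.08 (SE 0.11) and -0.51 (SE 0.06), and Clba1 at 0.16 (SE 0.15) and -0.73 (SE 0.16). Jag1, Dll4 and Notch1 lie on chromosome 2, whose median was 0.19 in both states, so less that median Jag1 was at -0.35 and -0.39. Among the genes of this chromosome from 90 Mb on, where Jag1 and Dll4 lie and Notch1 does not, the median was 0.29 without stimulation and 0.28 after LPS. The boundary was set with values known, and less that median Jag1 was at -0.45 and -0.48.

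**Figure D4:**
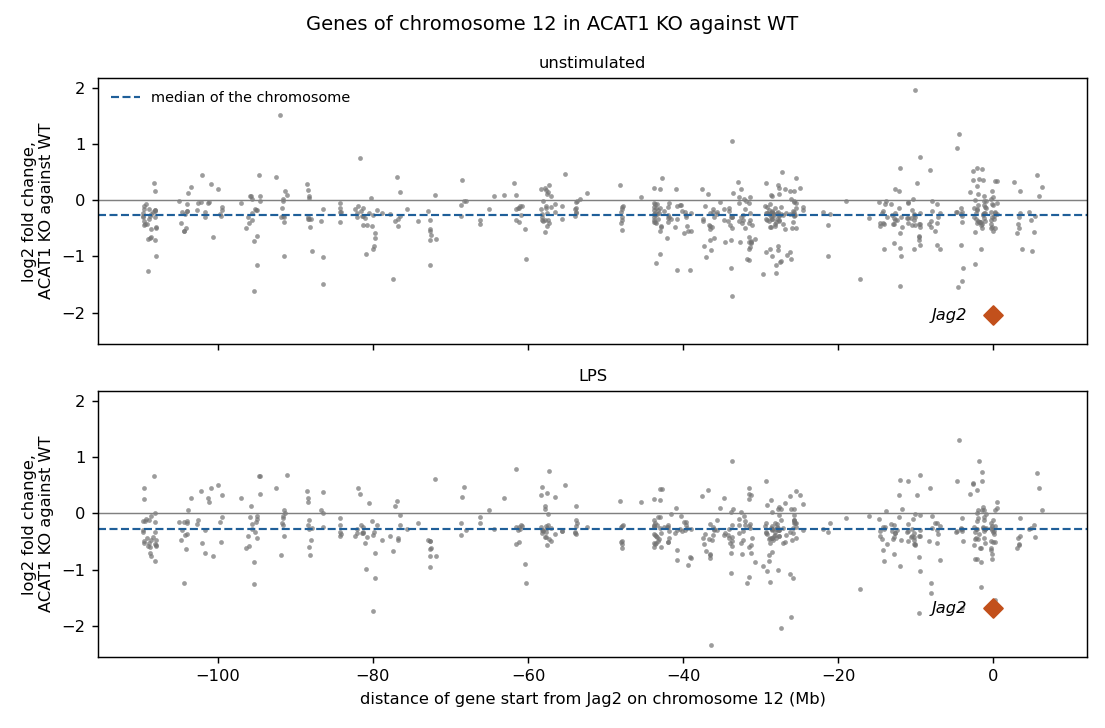
Log2 fold change of ACAT1 KO against WT for the chromosome 12 genes tested in unstimulated cells, against the distance of each gene from Jag2 in Mb, with unstimulated cells above and LPS below. The dashed lines are the chromosome medians of -0.26 and -0.28, and Jag2, the diamond, lies at -2.03 and -1.68.

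The genes whose log2 CPM over the 12 libraries was most like that of Jag2, among 11960 with a mean of at least 1 CPM, were Ppp2r5c (Pearson's r = 0.976) and Zbtb1 (0.973) on chromosome 12, Dpep3 (0.971) on chromosome 8, Ptgs1 (0.969) on chromosome 2 and Nfia (0.965) on chromosome 4. Ptgs1, the constitutive cyclooxygenase, averaged 242.9 CPM in WT and 153.8 CPM in ACAT1 KO cells without stimulation, and 163.1 and 109.1 CPM after LPS. Among the other members, Hes1 had an r of 0.95 with Jag2 and Jag1 of -0.69. The libraries fall into the 4 groups of the design, so these values mostly describe the group means and carry no p.

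The rest of the pathway was read from a list of 53 genes, of which 43 could be tested for the LPS response. In WT cells 17 rose and 20 fell, and in ACAT1 KO cells 17 rose and 20 fell, beside 29.3% and 28.0% of all genes in WT and 29.5% and 31.2% in ACAT1 KO cells. The median log2 fold change of the list was -0.09 in WT and -0.17 in ACAT1 KO cells, beside -0.02 and -0.03 over all genes. The 6 that did not pass were Aph1a, Psenen, Fbxw7, Psen2, Kat2a and Ncor1 in both genotypes. With the replicate number as a block, Psen2 passed in ACAT1 KO cells at -0.16 (adjusted p = 0.021 in edgeR), and Cir1 no longer passed in WT cells at -0.17 (adjusted p = 0.052).

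Of 15 genes of receptor maturation and cleavage, 4 rose and 8 fell in each genotype. Furin, the protease that processes the receptor on its way to the surface, rose by 1.56 on the log2 scale in WT (SE 0.12, adjusted p = 3.1e-07 by the quasi-likelihood test of edgeR) and by 1.38 in ACAT1 KO cells (SE 0.11, adjusted p = 7.1e-07). The Fringe glycosyltransferases that tune ligand choice fell, Lfng by 1.66 in WT and 1.88 in ACAT1 KO cells and Mfng by 0.97 and 1.14. Aph1c, a gamma-secretase subunit, fell by 1.11 and 1.31.

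Of 13 tested ubiquitin ligases and endocytic regulators, 7 rose and 5 fell in each genotype. Dtx3l, a Deltex family ligase, rose by 3.61 on the log2 scale in WT (SE 0.12, adjusted p = 7.1e-10 by the quasi-likelihood test of edgeR) and by 4.07 in ACAT1 KO cells (SE 0.12, adjusted p = 3.0e-10). Dtx2, of the same family, rose by 0.78 and 0.89, and Mib2, a ligase of Notch ligands, fell by 0.93 and 1.27. Numb, an endocytic inhibitor of Notch that lies on chromosome 12 like Jag2, rose by 1.18 in WT (SE 0.10, adjusted p = 1.4e-06) and by 0.49 in ACAT1 KO cells (SE 0.10, adjusted p = 0.0014). Dtx3l shares exonic bases with Parp9 on the other strand, and Numb with Gm46367. Whether the counts used strand is not given in the sources used here, and the part of these genes in the counts was not tested.

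Of 11 nuclear cofactors, 6 rose and 3 fell in each genotype. Snw1, a cofactor of Rbpj complexes, rose by 0.59 and 0.47, and the acetyltransferase Kat2b fell by 0.64 and 0.67 in WT and ACAT1 KO cells. Of 8 further targets only Hes6, Hey1 and Nrarp could be tested, and all 3 fell in both genotypes, as Hes1 did. Nrarp, a feedback inhibitor of Notch, fell by 1.64 in WT (SE 0.26, adjusted p = 1.6e-04 by the quasi-likelihood test of edgeR) and by 1.11 in ACAT1 KO cells (SE 0.25, adjusted p = 0.0022). Hey1, a Hes-related repressor, fell by 1.08 and 1.26, and Hes6 by 0.55 and 0.52. Among ligands and receptors outside the members, Dner alone could be tested, and it fell by 1.26 and 2.01.

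**Figure D5:**
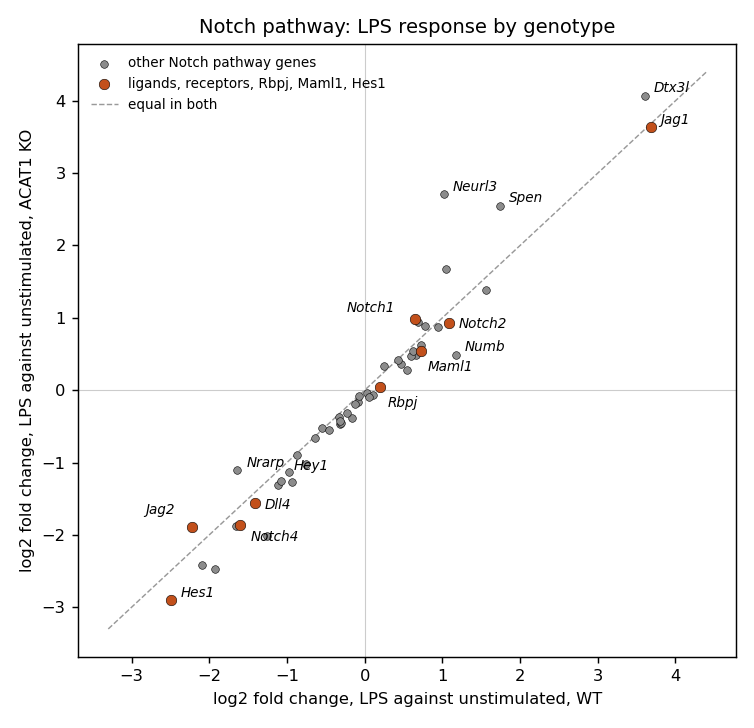
Log2 fold change of LPS against unstimulated cells in WT (horizontal) and ACAT1 KO (vertical) for the 9 members (orange) and 43 other Notch pathway genes (grey), with a dashed line where both are equal. Jag1 and Dtx3l stand at the upper end and Hes1 at the lower end, and Neurl3, at 1.02 and 2.71, lies above the line.

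None of the 43 genes passed the adjusted threshold for the interaction in edgeR's quasi-likelihood test, 8 had an unadjusted p under 0.05 beside 8.92% of all genes, and DESeq2 called 2 and limma-voom 0, beside 2.02% and 0.0665%. With the replicate number as a block, which paired the libraries of the 2 states, 3 passed, beside 1.74% of all genes. They are named after their values were seen. Neurl3, a Neuralized family ligase, had an interaction of 1.69 (SE 0.31, adjusted p = 0.061 by the quasi-likelihood test of edgeR), or 1.71 with the block (SE 0.10, adjusted p = 0.0012). It was at 38.7 to 46.2 CPM in WT and 5.22 to 9.27 CPM in ACAT1 KO cells without stimulation, and at 72.8 to 105.0 and 38.3 to 60.5 CPM after LPS, without overlap of genotypes in either state. Numb had an interaction of -0.69 (SE 0.15, adjusted p = 0.095), or an adjusted p of 0.013 with the block, and Dtx3l one of 0.46 (SE 0.15, adjusted p = 0.32), or an adjusted p of 0.041 with the block.

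Between genotypes, 2 of the 43 pathway genes passed the adjusted threshold in unstimulated cells, both lower in ACAT1 KO cells, beside 1.91% of all genes and 1.17% for lower genes. They were Neurl3, at -2.45 on the log2 scale (SE 0.22, adjusted p = 0.012 by the quasi-likelihood test of edgeR), and Neurl1a, a ligase of the same family, at -1.66 (SE 0.25, adjusted p = 0.039). Neurl3 no longer passed without WT unstimulated 1 (adjusted p = 0.054) or 2 (adjusted p = 0.064), and Neurl1a no longer passed without any one of the unstimulated libraries but WT 3 (adjusted p of 0.090 to 0.15). After LPS 11 of 44 passed, beside 15.1%, with Spen higher, beside 5.93%, and 10 lower, beside 9.12%. The number fell to 4 without ACAT1 KO LPS 1, ACAT1 KO LPS 2 or WT LPS 2, and to 3 without ACAT1 KO LPS 3. Numb was at -1.02 there (SE 0.09, adjusted p = 0.0014 by the quasi-likelihood test of edgeR). The targets Hes6, Hey1 and Nrarp did not pass in either state and had differences of -0.31 to 0.26 on the log2 scale. Their SEs were 0.09 to 0.31, beside the -1.69 and -2.10 of Hes1.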

How the data were processed

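RNA-seq of 12 libraries of J774A.1 cells was analysed. Per the labels and the study's methods, the authors used Trimmomatic 0.33 for trimming, HISAT2 for alignment to GRCm38 and StringTie for gene levels. The counts deposited for each gene are whole numbers and not normalized, with 1 table per state. The step that wrote them, and its use of strand, is not given in the sources used here. The tables list 17544 and 17874 genes once 59 and 57 repeated entries with the same counts were removed, each with at least 4 counts in at least 5 of 6 libraries, so silent genes can be missing. The authors' log2 values per library (12 columns), fold changes, scores and p-values were not used. Replicates differed by more than sampling noise (chi-square per degree of freedom of 34.1 to 287 over 12 pairs), so the spread between libraries limits precision for all but the lowest genes.

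Groups came from the labels. Genes were tested with edgeR 4.0.16 in R 4.3.3 (filterByExpr, TMM, quasi-likelihood test, two-sided, Benjamini-Hochberg over all genes tested, threshold 0.05). The LPS responses and the interaction used the 12 libraries in one fit without a block, and the genotypes were compared within each state. SE is the log2 fold change divided by the root of its F. CPM are on the TMM scale of both tables, levels per kb use the union of exons in GENCODE vM21, and coordinates are from that annotation. A design of 3 against 3 libraries cannot go below p = 0.1 in an exact permutation test, so none was used.

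Deviations from the group means correlated at 0.186 to 0.453 between WT or ACAT1 KO libraries of the same number in the 2 states and at -0.309 to -0.00847 between other numbers (11961 genes), so the numbers were taken to pair the states. The labels do not state this.

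The members and gene lists were chosen with earlier results of these data known. The text names all 10 members, up to 5 risen and 5 fallen pathway genes with the smallest p for LPS in WT, the 3 genes nearest to Jag2 on each side, the 5 most like it, Acat1 and LPS controls, and a few others by their values. Alternatives were DESeq2 1.42.0, limma-voom 3.58.1, relative log expression and upper-quartile normalization, other filters, replicate blocks, a term for the 3 unstimulated libraries that stood apart in other-strand counts, a single fit over both states, the chromosome median and each library left out in turn. On simulated counts with 200 genes changed by 1 on the log2 scale, the test recovered 136 for LPS in WT among 16462 genes, 102 for the interaction among 16465, 104 for genotype without stimulation among 16183 and 170 after LPS among 16280. False calls made up 9.33% of the calls for LPS in WT, more than the adjusted threshold is meant to allow. They made up 3.77% for the interaction, 2.80% for genotype without stimulation and 4.49% for genotype after LPS. In the data 57.4% of genes passed for LPS in WT, far more than the 200 changed here. The 9.33% may therefore not carry over to those calls. Counts are of reads, not of molecules.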

Additional observations from a re-analysis of the deposited data

How the results depend on the processing

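The number of members past the threshold for LPS stayed within 1.5 times of 9 in WT (7 to 9) and of 8 in ACAT1 KO cells (6 to 8), and that for the interaction stayed at 0, under every alternative run. Between genotypes the counts of members are a description, since Jag2 chose the genes. Without stimulation, 1 member passed, beside 314 of 16440 genes. The number was 2 with DESeq2, beside 1721 genes, and 2 with at least 10 counts in every library, beside 475 of 14755. With the term for the 3 libraries that stood apart in other-strand counts it was 2, beside 664 genes. After LPS, 2 members passed, beside 2481 of 16483 genes. The number was 4 with DESeq2, beside 3078 genes, and 4 with the replicate number as a block, beside 2230. With each library left out it was 1 to 3, with 1 without ACAT1 KO LPS 1, 2 or 3 or WT LPS 2. Nothing is read from these counts of members. Upper-quartile normalization moved the median of all genes by -0.21 in the LPS response of WT and -0.15 in that of ACAT1 KO cells, and the share of higher genes among those called from 51.1% to 35.2% in WT and from 48.5% to 37.4% in ACAT1 KO cells. Genes called for the interaction numbered 31 over all genes, 334 with DESeq2, 11 with limma-voom 288 with the replicate number as a block and 2 to 41 with each library left out. Genes called between unstimulated genotypes numbered 314, 1721 with DESeq2, 1353 in a single fit over both states, 664 with the term for the 3 libraries, 475 with at least 10 counts in every library and 151 with the replicate number as a block. They fell to 7 without WT unstimulated 2, 17 without WT unstimulated 1, and 24, 34 and 10 without ACAT1 KO unstimulated 1, 2 and 3, and rose to 522 without WT unstimulated 3. After LPS they numbered 2481, and 867 to 2245 with each library left out. The cause was not tested.

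Directions turned for small values. Under upper-quartile normalization the LPS response of Rbpj was -0.0086 in WT and -0.11 in ACAT1 KO cells, and the interaction was 0.0051 for Jag1 and 0.031 for Kat2b. With each library left out, the LPS response of Rbpj in ACAT1 KO cells ranged from -0.0032 to 0.062, and the interaction from -0.17 to 0.086 for Jag1, from -0.39 to 0.078 for Dll4, from -0.58 to 0.015 for Notch4, from -0.86 to 0.66 for Hes1 and from -0.13 to 0.035 for Kat2b. Without the 3 libraries that stood apart, the interaction of Kat2b was 0.00471, with WT unstimulated 3 alone in its group. This alternative was chosen after seeing the data, like the block with their term.

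With the replicate number as a block pairing the states, 9 members passed for LPS in WT, 8 in ACAT1 KO cells and 0 for the interaction, and it changed no call of a member. Among the other genes with a call in the text, it changed those of Cxcl2, Psen2, Cir1, Neurl3, Numb and Dtx3l, as given above. Between genotypes the numbers only share a name, with correlations from -0.312 to 0.727 without stimulation and -0.0972 to 0.227 after LPS. Without stimulation, libraries of the 2 genotypes alike in their share of other-strand counts correlated at 0.489 to 0.727. Unlike ones correlated at -0.831 to -0.312. The 3 libraries that stood apart are 2 of WT and 1 of ACAT1 KO cells, so this split, seen over 11961 genes, is unbalanced between the unstimulated genotypes. The block by number between genotypes gave 1 member without stimulation, beside 151 of 16440 genes. Low counts limit Dll4 and Notch4.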
